A study of Drosophila melanogaster with 2 samples.

Results

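The phototransduction cascade genes described here are 10 genes whose products carry the light response of Drosophila photoreceptors from activated rhodopsin to the membrane channels: Galphaq, norpA, rdgA, rdgB, trp, trpl, inaD, inaC, Arr2 and rdgC. They were taken as named genes of the Ensembl models, and all 10 were found among the 13945 protein-coding genes of the 6 chromosome arms used. The data are chromatin immunoprecipitation followed by sequencing (ChIP-seq) of the transcription factor Eyeless, the fly Pax6 protein, in whole wandering larvae at the end of larval life, both sexes pooled. The larvae belonged to 1 transgenic line that stably expressed ey with a GFP at its C terminus, and the pull-down used an antibody against GFP per the description, although the antibody entry reads ey. There was 1 group of 2 biological replicates, numbered 1 and 3, so nothing could be compared between conditions. The labels give the biosample as the whole organism, so each region pools every larval cell that carried the fusion, and the promoter that drove it is not given in the labels. A region is an interval the authors called as enriched, its summit is the base of highest enrichment within it, and its signal is the authors' own strength value on a scale that is not stated. The optimal list held 6835 regions that passed the authors' reproducibility procedure, the pooled list 30000 regions, the list of replicate 1 30000 regions and that of replicate 3 27637 regions. The lists carry no read totals, and read depth is therefore unknown.

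In fly photoreceptors, light-activated rhodopsin switches on a G protein of the Gq class, which activates a phospholipase C that cleaves the membrane lipid PIP2. Cation channels of the TRP family then open, and a scaffold protein holds several of the components together in the light-sensing rhabdomere. Arrestin, a protein kinase C and a rhodopsin phosphatase shape how the response ends, and lipid enzymes and carriers rebuild PIP2. Eyeless acts early in eye development, whereas most of these genes are known for their use in mature photoreceptors, of the larval eye and later of the adult eye.

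A gene was counted as bound when an optimal region had its summit within the gene or at most 1 kb away. By that rule 5 of the 10 genes were bound: the phospholipase C gene norpA, the diacylglycerol kinase gene rdgA, the lipid transfer protein gene rdgB, the phosphatase gene rdgC and the G protein gene Galphaq. Both channel genes, trp and trpl, the scaffold gene inaD, the kinase gene inaC and the arrestin gene Arr2 were not. Of all protein-coding genes, 34.1% were bound by the same rule. With summits inside the gene only, the count was 3 of 10, norpA, rdgA and rdgB. The 5 bound genes held 11 optimal regions. Of these, 3 were at norpA, 3 at rdgA, 2 at rdgB, 1 at rdgC and 2 at Galphaq. At 4 of the 10 genes there were 2 or more optimal regions, against 11.6% of all protein-coding genes and 34.2% of the bound ones. An optimal summit within 500 bp of a transcription start site (TSS) of their own was found at 5 of the 10 genes, the 5 bound ones, against 23.0% of all protein-coding genes and 67.6% of those bound. The same 5 of 10 had at least 1 optimal summit for which no other protein-coding gene's TSS was nearer, against 23.3% of all protein-coding genes and 68.5% of those bound. These counts rest on few genes, and the 10 genes were long, with a median of 11140 bp against 2166 bp over all protein-coding genes.

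**Figure D1:**
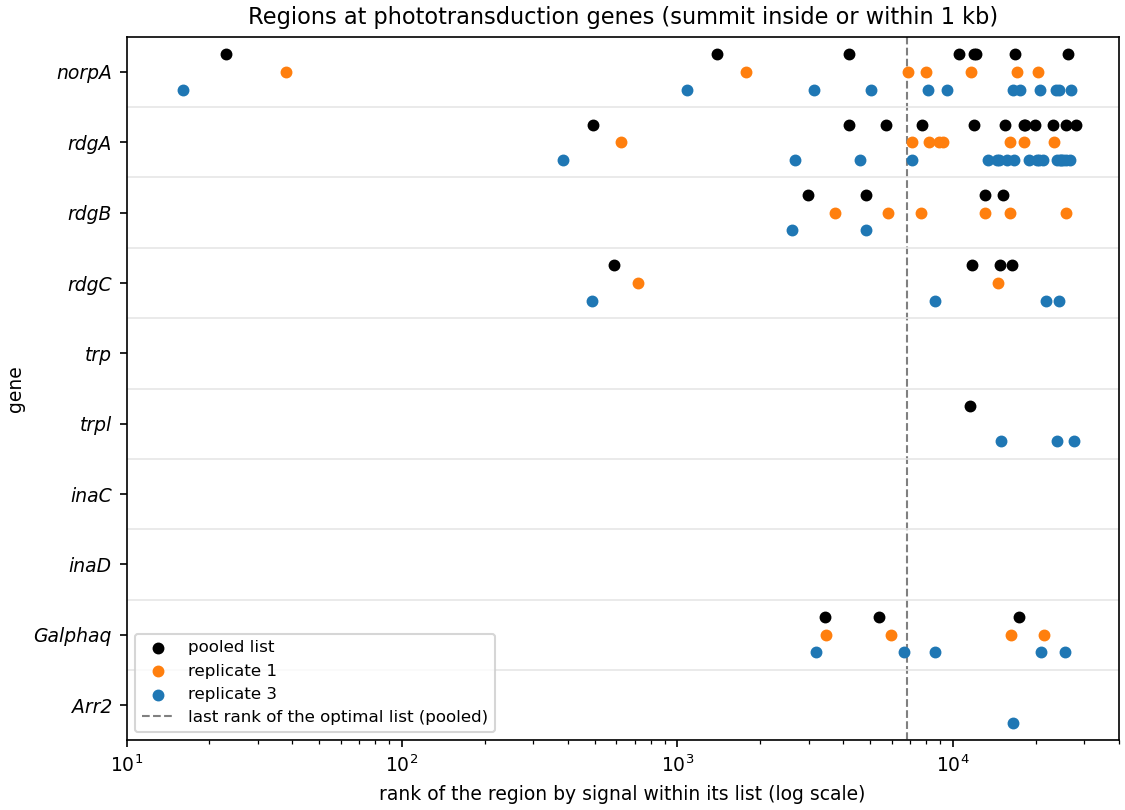
Rank by signal of every region at the 10 genes (horizontal axis, log scale, 1 is the strongest of its list) for the pooled list (black), replicate 1 (orange) and replicate 3 (blue), one row per gene. The dashed line marks rank 6835, the last rank of the optimal list. Among the 10 genes, norpA holds the strongest region in all 3 lists, and trp, inaC and inaD hold no region in any of them.

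The sequences under the strongest summits are shown first, because their base composition and their short homeodomain cores are taken up again with the motifs. Each is 101 bases of the dm6 plus strand of the RefSeq genome centred on the summit, written 5′ to 3′, with the 4-base homeodomain core TAAT, on either strand, in capitals. The first, the third and the fourth lie at the strongest regions of norpA, rdgA and rdgC, ranks 23, 492 and 590 of the optimal list. The second is the next region of norpA, rich in A and T but without a core, and the last 2 are the promoter-proximal region of rdgB and the GC-rich region inside rdgA.
norpA region 1 (chrX:4324953-4325053): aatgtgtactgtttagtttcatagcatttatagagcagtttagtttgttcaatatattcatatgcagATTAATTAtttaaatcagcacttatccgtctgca
norpA region 2 (chrX:4324158-4324258): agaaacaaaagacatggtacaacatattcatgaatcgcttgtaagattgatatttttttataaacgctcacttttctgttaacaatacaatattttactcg
rdgA region 1 (chrX:8974336-8974436): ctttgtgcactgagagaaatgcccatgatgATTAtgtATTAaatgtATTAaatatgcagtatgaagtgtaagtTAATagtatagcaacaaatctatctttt
rdgC region 1 (chr3L:20247659-20247759): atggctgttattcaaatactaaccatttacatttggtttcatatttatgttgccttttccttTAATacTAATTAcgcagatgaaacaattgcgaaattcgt
rdgB region 1 (chrX:13762443-13762543): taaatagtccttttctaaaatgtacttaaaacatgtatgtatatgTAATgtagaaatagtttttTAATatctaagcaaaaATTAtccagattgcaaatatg
rdgA region 2 (chrX:8973280-8973380): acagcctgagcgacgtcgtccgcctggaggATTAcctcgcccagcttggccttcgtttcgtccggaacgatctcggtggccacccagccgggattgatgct

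Galphaq encodes the alpha subunit of the G protein that couples rhodopsin to the phospholipase. The gene (FBgn0004435; 2R, 12612740 to 12623197, plus strand, dm6) had 2 optimal regions, both just upstream of its first TSS and overlapping each other. The first (12612236 to 12612665) had a pooled signal of 148, rank 3439, with its summit 289 bp upstream of the TSS. It had a signal of 79.7 in replicate 1, rank 3468, and 75.0 in replicate 3, rank 3172. The second (12612439 to 12612868) had a pooled signal of 99.7, rank 5407, and its summit lay 86 bp upstream, with rank 5973 in replicate 1 and 6632 in replicate 3. Both were below the median optimal signal of 149, and both were present in each replicate. CG45086 shares this TSS to the base, and Amph, which encodes amphiphysin, also lies within 1 kb, so the position does not separate these genes. The 2 other TSSs of Galphaq, 1 bp apart at 12615787 and 12615788, had their nearest optimal summit at 3133 and 3134 bp.

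norpA encodes the phospholipase C of the cascade and held the single region of highest signal among the 10 genes. The gene (FBgn0262738; X, 4322626 to 4365408, plus strand) spans 42783 bp with 3 TSSs. Its strongest region (4324722 to 4325225) lay in an intron, 1394 bp downstream of the TSS at 4323609, and had a pooled signal of 2033, rank 23. The signal was 879 in replicate 1, rank 38, and 1155 in replicate 3, rank 16, and the summits of the replicates were 2 bp apart. Over all bound protein-coding genes, 28 had a best region of rank 23 or better, and the median best rank was 2604. The second region (4324077 to 4324319) lay 599 bp downstream of the same TSS, with signal 283 and rank 1386, and ranks of 1768 in replicate 1 and 1087 in replicate 3. Region 3 (4322628 to 4323057) lay in the 5′ UTR, 217 bp downstream of the first TSS, with signal 127 and rank 4180, and ranks of 6876 in replicate 1 and 3122 in replicate 3. mRpL33, a mitochondrial ribosomal protein gene, lies within 1 kb of the summit of region 3, but for all 3 summits the nearest protein-coding TSS was one of norpA's own. Of the 3 regions, the signal was higher the farther the summit lay from the 5′ end of the gene, and no optimal summit lay in the remainder of its length. The last TSS of norpA, at 4347918, was 22915 bp from the nearest optimal summit and 15492 bp from the nearest pooled one.

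The other 5 pooled regions at norpA ranked below the optimal list. A region of rank 12173 had its summit 112 bp upstream of the TSS at 4323609. Ranks 11974, 16829 and 26180 fell in introns nearer to the TSS of the neighbouring CG12693, and rank 10533 fell downstream of the gene, 62 bp from the TSS of CG3626. In all, norpA had 8 pooled regions, 7 in replicate 1 and 12 in replicate 3.

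rdgA encodes the diacylglycerol kinase that turns the lipid product of the phospholipase into phosphatidic acid. It is the longest of the 10 genes (FBgn0261549; X, 8907068 to 9029476, plus strand, 122409 bp), and a second gene, CG10962, lies inside one of its introns. The strongest region at rdgA (8974228 to 8974588) had a pooled signal of 529, rank 492, with a signal of 256 in replicate 1, rank 623, and 283 in replicate 3, rank 383. Its summit lay 131 bp from the TSS of CG10962 and 49202 bp from the nearest TSS of rdgA. The second (8973277 to 8973430, signal 126, rank 4207) had its summit in the coding sequence of CG10962 and in an exon of lncRNA:CR43836, 925 bp from the TSS of CG10962 and 48146 bp from that of rdgA. Both of the stronger regions thus stood nearer to the TSS of CG10962, and they were the 2 of the 11 regions for which the TSS of another protein-coding gene was nearer. Region 3 (8906750 to 8907179) lay at the promoter of rdgA, with its summit 103 bp upstream of the first TSS. It was the weakest of the 11, with a pooled signal of 94.1, rank 5730, and ranks of 8207 in replicate 1 and 4592 in replicate 3. e(r), the enhancer of rudimentary gene, lies within 1 kb of it.

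The other 9 pooled regions at rdgA were below the optimal list. The best of them, rank 7718 with a signal of 70.1, lay in an intron where the nearest protein-coding TSS was that of CG12662, 20164 bp away. Rank 11973 lay 64 bp from the TSS of e(r), and rank 27881 lay 413 bp upstream of the rdgA TSS at 8925184. For 7 of the 12 pooled regions at rdgA the TSS of another protein-coding gene was nearer than any of its own, against 4 of 8 at norpA and 0 at rdgB, rdgC and Galphaq.

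rdgB encodes a phosphatidylinositol transfer protein that returns lipid to the light-sensing membrane. The gene (FBgn0003218; X, 13762752 to 13779488, plus strand) had a region at its promoter (13762469 to 13762588) with its summit 259 bp upstream of the TSS. Its pooled signal was 166, rank 2987, and its rank was 3725 in replicate 1 and 2601 in replicate 3. Yp3, a yolk protein gene, lies within 1 kb of this summit, but the TSS of rdgB was nearer. The second region (13764631 to 13765060) lay in an intron 2094 bp downstream of that TSS, with signal 111 and rank 4822, and ranks of 5834 in replicate 1 and 4849 in replicate 3. The summits of this region stood 91 bp apart in the replicates, the widest gap of the 11, and the 2 signals of 51.8 and 52.2 were nearly equal. The pooled list added 2 regions, ranks 13119 and 15257, with summits 55 bp upstream and 1475 bp downstream of the TSS.

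**Figure D2:**
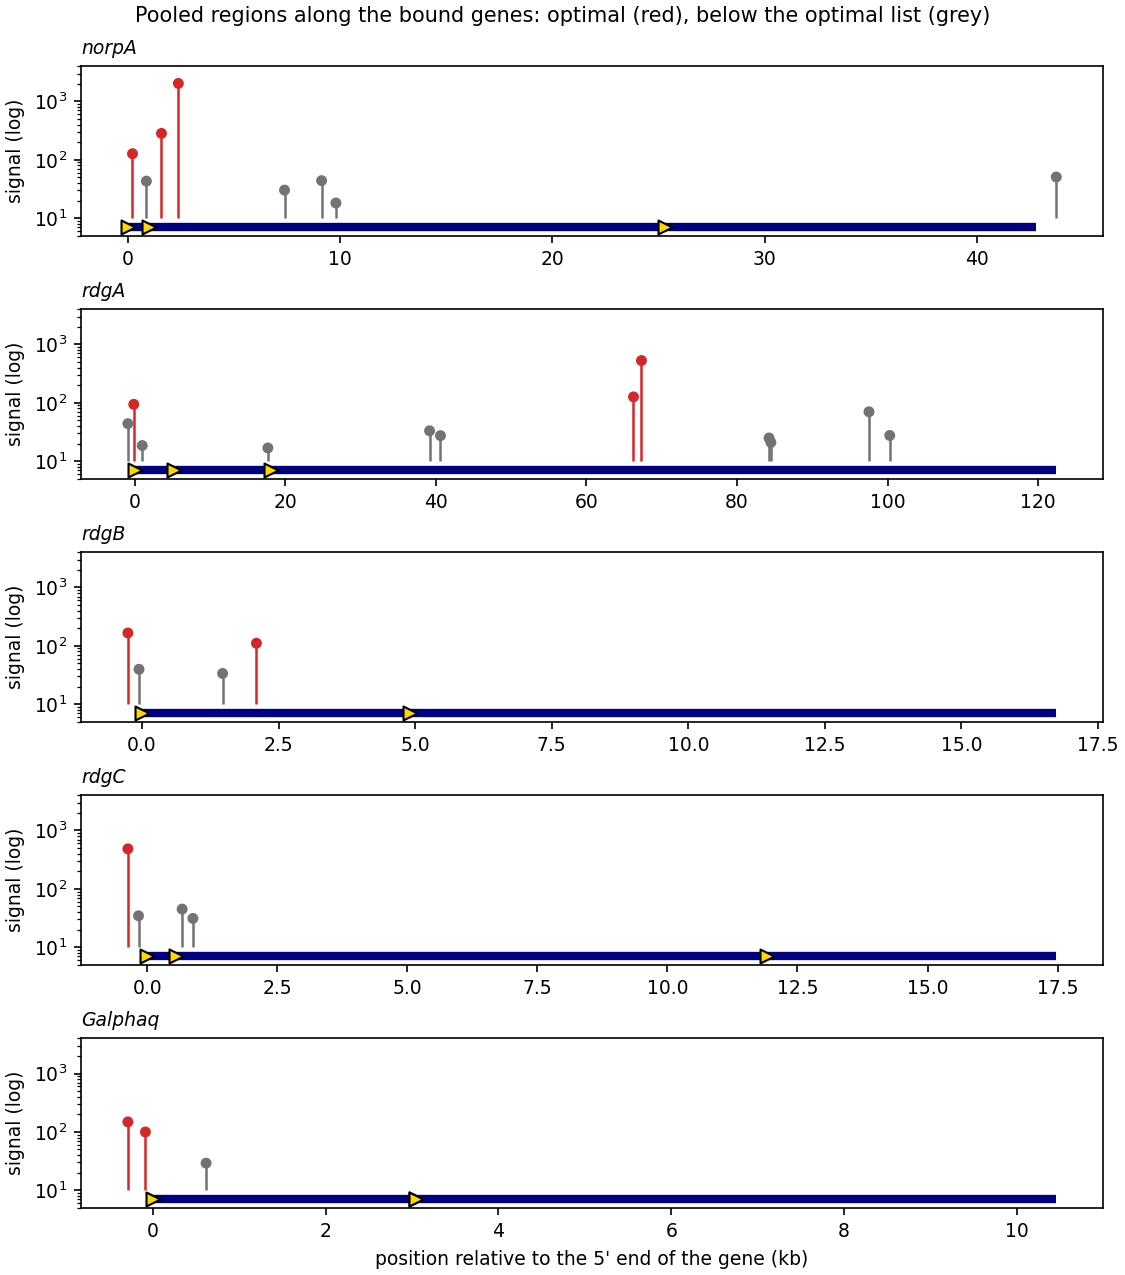
Pooled regions along the 5 bound genes: position of the summit from the 5′ end of the gene (kb, horizontal axis) and signal (vertical axis, log scale). Optimal regions are red and weaker pooled regions grey, the blue bar is the gene and the yellow triangles are its TSSs. The optimal regions stand near the first TSS of each gene, except the pair deep inside rdgA with signals of 529 and 126.

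rdgC encodes the calcium-regulated phosphatase that removes phosphate from rhodopsin. The gene (FBgn0265959; 3L, 20248080 to 20265554, plus strand) had a single optimal region (20247549 to 20247890), upstream of the gene. Its summit lay 371 bp before the first TSS, with no other protein-coding gene within 1 kb, and at the same base in both replicates and the pool. The pooled signal was 485, rank 590, and the signals of 234 in replicate 1 and 251 in replicate 3 gave ranks of 721 and 491. Among the optimal summits within 500 bp of an own TSS it had the highest signal of the 10 genes. Weaker pooled regions stood 167 bp before the first TSS (rank 14857) and 124 and 331 bp after the second TSS (ranks 11714 and 16333), while the last TSS, at 20259986, was 11027 bp from any pooled summit. A single replicate 3 region of rank 24282 lay 48 bp from that last TSS.

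The channel genes were not bound. trp encodes the major light-gated channel (FBgn0003861; 3R, 29914521 to 29920289, minus strand), and no region of any of the 4 lists had its summit inside it or within 1 kb. The nearest pooled summit lay 10431 bp from the gene and the nearest optimal one 37709 bp, by the TSS of CG31038. trpl encodes the second channel subunit (FBgn0005614; 2R, 9753697 to 9765518, plus strand) and had 1 pooled region, of signal 46.0 and rank 11489 (9756205 to 9756634). It lay in an intron of trpl, 2723 bp from the TSS, and 1648 bp from the TSS of CG1690, whose 3′ UTR covers the summit. Replicate 1 had no region at trpl, and replicate 3 had 3, with signals of 17.1, 12.0 and 10.7 where the lowest signal of that list was 10.7. The regions at trpl were thus weak, and of the 2 replicates only replicate 3 held any.

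inaD encodes the scaffold with PDZ domains that gathers the channel, the phospholipase and the kinase, and inaC encodes that kinase, an eye protein kinase C. Neither gene had a region in any list. inaD (FBgn0001263; 2R, 22855688 to 22858794, minus strand) lay 1406 bp from an optimal summit of signal 90.7 and rank 5941, just outside the distance used, and that summit was 101 bp from the TSS of RpL23, a ribosomal protein gene. The farthest summit outside a gene that still counted was that of rdgC, at 371 bp. inaC (FBgn0004784; 2R, 16898535 to 16901575, plus strand) was 19174 bp from the nearest pooled summit and 41652 bp from the nearest optimal one, by the TSS of Dek. Arr2 encodes the main arrestin of the photoreceptor (FBgn0000121; 3L, 8647261 to 8648936, minus strand). It had a region in replicate 3 alone, of signal 15.7 and rank 16580, with its summit in coding sequence 495 bp from the TSS and Pex7, a peroxisomal import receptor gene, within 1 kb. The nearest optimal summit to Arr2 was a strong one, of signal 453 and rank 662, at 7946 bp, and the protein-coding TSS nearest to that summit was that of Pex7.

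Counted over the weaker lists, 6 of the 10 genes had a pooled region, the 5 bound genes and trpl, against 63.4% of all protein-coding genes. In replicate 1 the count was 5 of 10, against 61.8% of all genes, and in replicate 3 it was 7 of 10, with trpl and Arr2 added, against 66.6%. These counts differ little from the shares over all genes. At the bound genes, 209862 bp in all, the pooled list held 31 regions, replicate 1 held 27 and replicate 3 held 42. The genes not bound, 25415 bp in all, held 1, 0 and 4. The optimal list was the top of the pooled list, so 11 of the 31 regions were there by the definition of bound. With that and the unlike lengths, these counts do not compare the groups on equal terms. Per 10 kb of gene, the 10 genes held 0.468 optimal and 1.36 pooled regions, against 0.861 and 3.37 over all protein-coding genes. These ratios counted summits up to 1 kb outside a gene but divided by gene length alone, which raises them for short genes. In addition, rdgA alone made up 122409 of the 235277 bp of the 10 genes. The ratios therefore do not compare the 10 genes with all genes on equal terms.

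Gene length followed the split between the bound genes and the others. The 5 bound genes were 10458 to 122409 bp long with 2 or 3 TSSs each, and the 5 others were 1676 to 11822 bp long with a single TSS each. Over all protein-coding genes, cut by length into 5 groups of about equal size, the share bound was 15.6% in the shortest group (168 to 1023 bp; 95% exact binomial interval 14.3 to 17.0%), 41.2% in the next to longest (2839 to 6455 bp; 39.4 to 43.1%) and 56.4% in the longest (6458 to 1965857 bp; 54.5 to 58.2%). These intervals cover counting error over genes alone. Of the 6 cascade genes in the longest group 5 were bound, trpl being the exception, and of the 4 in shorter groups none was. A longer gene offers more room for a summit, and the part of length in the split was not tested. Of the 14 TSSs of the bound genes, 5 had an optimal summit within 500 bp, in each gene the most upstream one, and 8 had a pooled summit. None of the 5 TSSs of the other genes had a pooled summit within 500 bp. By the rule, a gene not bound could have no optimal summit there, and the share over all TSSs is not given here. The contrast is thus not a result apart from the split itself.

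**Figure D3:**
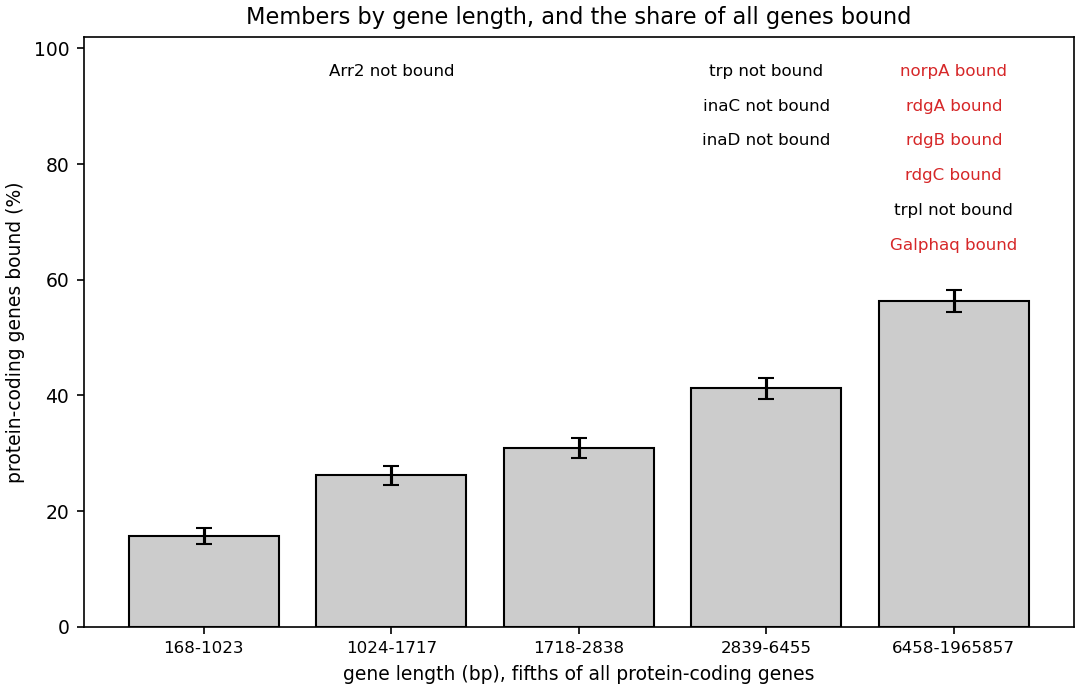
Share of protein-coding genes bound (vertical axis, percent) in 5 groups of gene length (horizontal axis, bp), with exact 95% binomial intervals that cover counting error over genes alone. The cascade genes are named above the group they fall in, bound ones in red. The share bound is 15.6% in the shortest group and 56.4% in the longest, which holds all 5 bound cascade genes.

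The 11 optimal regions were found in both replicates. The summits of the replicates lay a median of 26 bp apart and at most 91 bp. Of the 11, 8 were among the 6835 strongest regions of each replicate, and for all optimal regions that share was 76.6%. The 3 others, region 3 of norpA and regions 2 and 3 of rdgA, ranked 6876, 7101 and 8207 in replicate 1 and were among the strongest 6835 in replicate 3. Better ranks in replicate 3 were common: 10 of the 11 regions ranked higher there than in replicate 1, the second region of Galphaq being the exception. Over the 6712 optimal regions with a counterpart in both replicates 50.2% ranked higher in replicate 3, and over the 1262 of these on X, where 8 of the 11 lie, 60.9% did. A rank is a place within 1 list by a signal of unstated scale, so a higher rank shows no greater enrichment, and this shift was not tested.

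**Figure D4:**
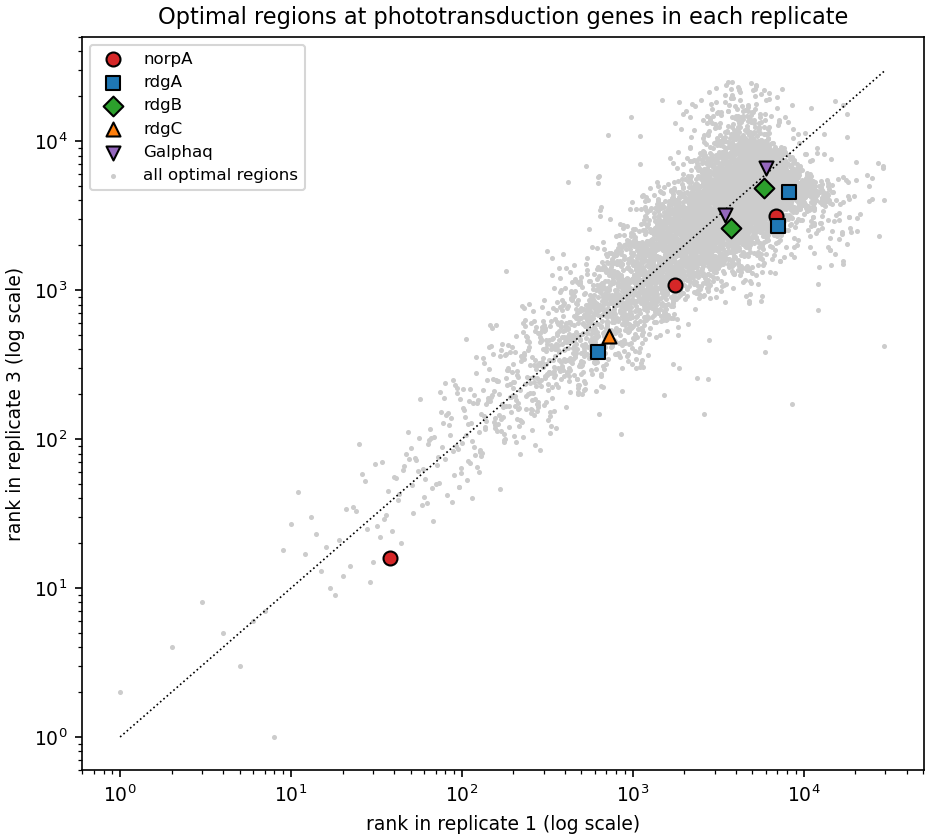
Rank of each optimal region in replicate 1 (horizontal axis) and replicate 3 (vertical axis), both log scales with 1 the strongest. Grey points are all optimal regions with a counterpart in both replicates, coloured symbols the regions of the 5 bound genes, and the dotted line marks equal rank. Of the 11 coloured symbols, 10 lie below the line, and norpA region 1 lies at ranks 38 and 16.

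The summits at the strongest regions were rich in A and T. The 101 bases at the summit held 28.7% G and C at norpA region 1, 28.7% at rdgA region 1 and 29.7% at rdgC region 1, against 37.6%, 41.6% and 48.0% in flanking windows, also of 101 bases, 300 bp away on each side. All 3 regions of rank 1000 or better were thus lower at the summit than beside it, with differences of -18.3 to -8.91 percentage points. Over the 11 regions the mean GC content was 36.8 ± 12.2% at the summit (SD over regions) and the difference from the flanks was -3.29 ± 18.3 percentage points, lower at the summit in 7 regions, higher in 3 and equal in 1. Over all 6835 optimal regions the difference was -10.3 ± 12.0 points, with 80.2% lower at the summit. The spread among the 11 was larger than their mean difference. With other sets of regions, the mean was -10.4 points over the 8 strong regions of replicate 1 alone and -4.62 points over the 12 of replicate 3 alone. Of the 11, the 3 higher at the summit were rdgA region 3 (28.2 points), rdgA region 2 (27.2 points) and rdgB region 2 (12.9 points), all of rank 4207 or worse. Regions 2 and 3 of rdgA were not among the strong regions of replicate 1. Over all optimal regions the mean difference was -13.5 points for ranks 1 to 1367 and -7.62 points for ranks 5469 to 6835.

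**Figure D5:**
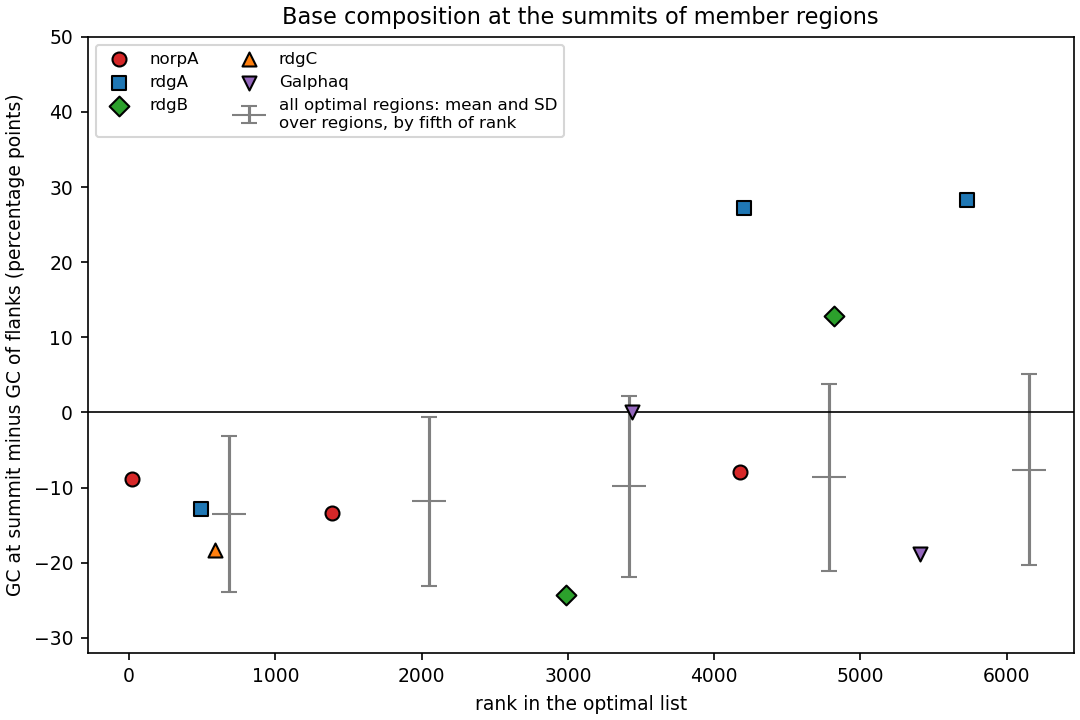
GC content of the 101 bases at the summit minus that of the flanks (percentage points, vertical axis) against rank in the optimal list (horizontal axis) for the 11 regions, one symbol per region. Grey marks give the mean and SD over all optimal regions in 5 groups of rank. The 3 regions of rank 1000 or better lie between -18.3 and -8.91 points, and rdgA regions 2 and 3 lie at 27.2 and 28.2 points.

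Short motifs were searched on both strands of the same 101-base windows without mismatches. A TAAT core, the letters shared by many homeodomain sites, stood in 8 of the 11 windows, against 77.1% of all optimal and 67.0% of all pooled windows. norpA region 2, rdgB region 2 and the first Galphaq region had none. rdgA region 1 held 4 cores, and norpA region 1, rdgB region 1, rdgC region 1 and the second Galphaq region held 3 each, as the capitals in the sequences show for those printed. These windows held only 21.8 to 31.7% G and C, and the core itself is made of A and T. How often all optimal windows hold 3 or more cores is not given here, so these numbers have no background. TAATCC, a site of homeodomains of the Orthodenticle kind, stood in rdgA region 2 alone, against 3.91% of all optimal windows. CANNTG, the E-box letters bound by many bHLH factors, stood in 3 windows, norpA region 1, rdgC region 1 with 3 matches and the first Galphaq region, against 35.5%, and in 9 windows when 100 bp either side of the summit were searched. GAGAG stood in rdgA region 1, against 9.60%, and GATAAG in norpA region 1, against 5.53%. TATCGATA, the replication element of housekeeping promoters, CACGTG, which is a kind of E-box, AGGTCA, GGTCACACT and the consensus of the Pax paired domain stood in none of the 11. Most of these motifs are rare in any window, at 2.05% of optimal windows or fewer for each of the last 5. The windows are also few, so the counts describe these letters only. The paired domain consensus, searched without mismatches, stood in 0% of all optimal windows and in 0.02% of all pooled windows. Its absence from the 11 therefore does not set them apart and cannot show whether these summits lack a Pax site.

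Promoters of fly rhodopsin genes are known for a conserved element near the TSS that resembles a pair of homeodomain cores facing each other, so this pair was also searched for, as TAAT and ATTA 3 bases apart. None of the 11 summit windows held it, against 1.29% of all optimal windows. In the promoters, taken as 250 bases before to 50 after each TSS, it stood at 4 of the 19 TSSs of the 10 genes, against 2.72% of the 19607 promoters of all protein-coding genes. These were the TSS of norpA at 4347918, that of rdgA at 8912368 and the single TSSs of trp and trpl. None of the 4 had an optimal or pooled summit within 500 bp: the cores lay 15438 bp from the nearest pooled summit at norpA, 4191 bp at rdgA, 16205 bp at trp and 2786 bp at trpl. Many of the 19 TSSs lacked one: 8 of the 14 at bound genes and 0 of the 5 others had a pooled summit within 500 bp. The share over all promoters with the pair is not given here, so its lack does not set these 4 apart. Relative to the TSS the centre of the pair was at -54 bp at norpA, -91 bp at rdgA, -6 bp at trp and -63 bp at trpl. The sequences of the first 3 are given along the strand of the gene, with the facing cores in capitals, so that the 3 bases between the cores and the bases around them can be compared.
norpA (chrX:4347844-4347884, plus strand): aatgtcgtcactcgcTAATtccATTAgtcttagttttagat
rdgA (chrX:8912257-8912297, plus strand): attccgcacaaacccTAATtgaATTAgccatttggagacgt
trp (chr3R:29920275-29920315, minus strand): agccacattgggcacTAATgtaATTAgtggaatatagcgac

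Other letters in the 19 promoters were common everywhere. A TAAT core stood in 17, against 91.4% of all promoters, and CANNTG stood in all 19, against 77.9%. TAATCC and TATCGATA stood in none, against 8.51% and 7.99%. The promoters were not equally near to summits, since 5 of the 19 had an optimal summit within 500 bp.

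Further genes of the cascade and of the photoreceptor were counted by the same rule from fixed lists. Of 22 other cascade genes, 8 were bound (36.4%) and 14 had a pooled region, and 3 had an optimal summit within 500 bp of a TSS of their own. The strongest was Gprk2, a receptor kinase gene, with 5 optimal regions, the best of signal 2333 and rank 11. That summit lay 84 bp from the TSS of PNPase and 589 bp from its own. Cds, which encodes CDP-diacylglycerol synthase of the PIP2 cycle, ranked 1161 with its summit 76 bp from its own TSS. Pis, the phosphatidylinositol synthase gene, ranked 4086 and Itpr, the inositol trisphosphate receptor gene, 4157. Nckx30C, a sodium-calcium exchanger gene, inaE, a diacylglycerol lipase gene, Gbeta76C, the eye G protein beta subunit gene, and Cam, the calmodulin gene, ranked 5784 to 6629, each with the TSS of another gene nearer. For Pis, too, the TSS of another gene, Hap40, was nearer. Of the rest, 8 had no pooled region, Arr1 and ninaC among them.

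Of 14 rhodopsin and chromophore genes 3 were bound (21.4%). They were ninaG, a chromophore enzyme gene at rank 300 with the TSS of Sptz nearer, Rh5, the blue-sensitive rhodopsin gene at rank 3602, and pinta, a retinoid-binding protein gene at rank 4319. The other rhodopsin genes ninaE, Rh2, Rh3, Rh6 and Rh7 had no pooled region, and Rh4 had pooled regions below the optimal list. The best region at Rh4, of rank 7365, had its summit 8 bp from the TSS of sina and 8758 bp from that of Rh4. Of 10 regulators of photoreceptor fate 3 were bound, melt at rank 695, 228 bp from its own TSS, ss at rank 5318 and dve at rank 6423. These shares stand beside the 34.1% of all genes, and the median gene length was 1816 bp in the rhodopsin list and 9910 bp among the other cascade genes.

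The protein-coding genes outside these lists whose best signals were most like those of norpA were CG9663, Trp1, a translocation protein gene, and CG11808. Likeness was the sum over the 2 replicates of the absolute log2 ratio of best signals, and it was 0.13 for CG9663, 0.21 for Trp1 and 0.21 for CG11808. norpA had best signals of 879 in replicate 1 and 1155 in replicate 3, against 960 and 1155 at CG9663, 877 and 1004 at Trp1, and 827 and 1061 at CG11808.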

How the data were processed

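Regions were read from the dm6 lists of both replicates, of the pool and of the optimal set. Per the file headers and listings, the authors derived them from alignments and a control, which was not analysed here; which aligner, caller and threshold they used is not given in the sources used here. The deposited signal, a strength value of unstated scale, ranked regions within a list. The deposited −log10 q-value was not used, being at its ceiling in every optimal region. The summit was placed with the offset the authors deposited. The dm3 lists were not used.

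Genes came from Ensembl release 115, and sequence from the Release 6 genome of RefSeq. The 10 genes and the other lists were chosen with earlier results of these data known, so no test of a list was made. Of the 56 symbols of all lists 2 were matched through a synonym. Among the other lists, bound genes were named by rank, at most 8 per list, and neighbours where their TSS was nearer or within 1 kb. A replicate's counterpart of a region was the overlapping region (1 bp or more) with the nearest summit. Scripts (Python 3.11.15, pandas 2.3.3, scipy 1.17.1) were tested on simulated regions. Alternatives covered the distance rule, the lists, the windows and leaving out each replicate. No label says that the biological replicates came from separate cultures.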

Additional observations from a re-analysis of the deposited data

How the results depend on the processing

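The 5 bound genes were again bound when a summit had to lie within 1 kb of an own TSS and when any overlap counted. They were also bound when no other protein-coding TSS could be nearer than an own one, which Galphaq met only by a tie with CG45086. The strongest regions of either replicate alone gave the same 5 genes. In replicate 1, rdgA was held by 1 region alone, of rank 623, 177 bp from the TSS of CG10962 and 49248 bp from the nearest of rdgA. The region at the rdgA promoter, of rank 8207 there, was lost. With summits inside the gene only, 3 of the 5 genes stayed bound (norpA, rdgA and rdgB), with 6 regions in place of 11. Within 5 kb 6 genes were bound, inaD being added, and among the 3417 strongest optimal regions 4 were, Galphaq being lost. There, too, rdgA was held only by its region near the TSS of CG10962, of rank 492. The 11 regions were 7 with summits within 1 kb of an own TSS and 5 among the 3417 strongest, and 8 and 12 without replicate 3 and without replicate 1. Genes with a region in the longer lists numbered 5 and 7 without each replicate, and the number bound was 5 in both. The mean GC difference, -3.29 points at the optimal summits, was -10.4 without replicate 3 and -4.62 without replicate 1, each at that list's own regions and summits, and -6.24, -2.28 and -2.34 with windows of 25 bp and of 100 bp either side and with flanks 500 bp away. E-box windows numbered 9 in place of 3 with 100 bp either side. The rank of the best Galphaq region was 3468 without replicate 3 and 3172 without replicate 1. The cause of these shifts was not tested. No paired analysis was possible because both libraries belong to 1 group and no result comes from a test. Control reads and read depth limit what a missing region means.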
